A study of Mus musculus with 16 samples.

Results

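Chromatin accessibility after loss of both p300 and Tet2 was compared with loss of Tet2 alone in mouse hematopoietic stem and progenitor cells (HSPCs), using 8 of the 16 ATAC-seq libraries of the study: P300KO_TET2KO replicates 1 to 4 and TET2KO replicates 1 to 4. ATAC-seq marks DNA that a transposase can enter, and each library was deposited as a list of peak intervals. Both genotypes were C57BL/6 mice carrying Ep300 fl/fl and Tet2-/- alleles, and both were injected with poly(I:C), an interferon-inducing RNA mimic. Only the P300KO_TET2KO mice also carried Mx1-Cre, a Cre recombinase under an interferon-responsive promoter that deletes the floxed Ep300 alleles. Effects of the Cre transgene and of Ep300 deletion therefore cannot be told apart in this comparison. Each library held bone marrow HSPCs pooled from 2 mice of 1 genotype, with 200000 cells sorted and frozen and 50000 viable cells processed after thawing. The study's methods give 2 weeks after poly(I:C) as the usual time and name no other for ATAC-seq. WT (Ep300 fl/fl) and P300KO (Mx1-Cre; Ep300 fl/fl) libraries, 4 of each, had received poly(I:C) too and are used only where the same regions were examined with Tet2 intact.

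p300, encoded by Ep300, is a histone acetyltransferase that transcription factors bring to enhancers and promoters, where it acetylates histone tails and other proteins. Tet2 oxidizes 5-methylcytosine and is one of the genes most often mutated in clonal hematopoiesis and myeloid neoplasms. HSPCs keep the enhancers of several lineages partly open, and the factors bound there, among them Gata2, PU.1, Runx1, Myb and Cebp proteins, shape which lineage a progenitor enters. Gata factors are best known for red cell, megakaryocyte, mast cell and eosinophil programs, and Myb for the upkeep of proliferating progenitors.

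The lists differ in length and strength, so all values below are ranks. In each library the 50000 strongest intervals by the deposited −log10 p were kept, and a region received the score of its strongest interval, from 100 for the top of the list to 0 for a region outside the strongest 50000. A score of 0 therefore marks a region below that limit, not a closed one. The −log10 p at the last interval kept lay between 9.35 and 64.1 in the 8 lists and changed by at most 0.00589 at the next interval. Of 63838 merged regions, 49846 had a score above 0 in at least 4 of the 8 libraries and were tested. A region is called rising when both P300KO_TET2KO libraries scored above both TET2KO libraries within replicates 1-2 and again within replicates 3-4, and falling in the reverse case. In addition limma, a linear model with a term for the replicate pair, was fitted to the scores of all tested regions, with Benjamini-Hochberg adjustment over all of them and a threshold of 0.05, and regions past it are described as called higher or called lower.

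The sequences around some of the called regions are shown first, because the clearest feature shared by the regions called higher was the Gata string AGATAA or TGATAA. Each is the mm10 reference (RefSeq GRCm38.p6), plus strand, 75 bp either side of the strongest summit, and capitals mark every letter that belongs to a searched string on either strand. The first set holds regions called higher with a Gata string, assigned to genes of different programs: Cdrt4 (chr11:62929967-62930117), Arpc1a (chr5:145098337-145098487), Foxo1 (chr3:52309019-52309169), Cebpe (chr14:54705933-54706083) and Id2 (chr12:25164867-25165017). The Foxo1 region was at 0 in all TET2KO libraries and so was tested only through P300KO_TET2KO, and the Foxo1 and Id2 regions lost the limma call when replicate numbers were taken as blocks (adjusted p = 0.0558 and 0.0621).
Cdrt4: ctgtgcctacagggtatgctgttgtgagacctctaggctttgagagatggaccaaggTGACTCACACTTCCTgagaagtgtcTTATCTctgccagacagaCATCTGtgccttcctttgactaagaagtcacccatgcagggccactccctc
Arpc1a: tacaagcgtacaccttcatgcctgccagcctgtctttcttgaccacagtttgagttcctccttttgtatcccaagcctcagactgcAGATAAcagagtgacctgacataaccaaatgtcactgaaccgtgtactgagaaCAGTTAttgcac
Foxo1: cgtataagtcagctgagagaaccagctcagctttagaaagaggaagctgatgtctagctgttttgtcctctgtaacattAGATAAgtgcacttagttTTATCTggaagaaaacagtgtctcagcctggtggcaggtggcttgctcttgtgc
Cebpe: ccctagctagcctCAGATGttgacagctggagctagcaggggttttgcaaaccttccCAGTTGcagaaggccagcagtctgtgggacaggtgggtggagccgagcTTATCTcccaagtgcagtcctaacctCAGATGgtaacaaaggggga
Id2: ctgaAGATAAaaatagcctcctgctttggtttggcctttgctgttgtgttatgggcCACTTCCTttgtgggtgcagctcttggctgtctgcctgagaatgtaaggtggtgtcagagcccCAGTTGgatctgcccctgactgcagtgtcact

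The second set holds regions called lower: Bnc2 (chr4:84685750-84685900), Il6st (chr13:112433466-112433616) and Fos (chr12:85457770-85457920). The first 2 carry the Myb string CAACTG and none of the 3 carries a Gata string in the window searched. The capitals in the Fos region are a Runx string, and this region was at 0 in all P300KO_TET2KO libraries and so was tested only through TET2KO.
Bnc2: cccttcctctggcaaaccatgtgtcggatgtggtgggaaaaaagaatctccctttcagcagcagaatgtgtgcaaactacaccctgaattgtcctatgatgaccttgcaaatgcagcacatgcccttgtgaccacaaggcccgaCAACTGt
Il6st: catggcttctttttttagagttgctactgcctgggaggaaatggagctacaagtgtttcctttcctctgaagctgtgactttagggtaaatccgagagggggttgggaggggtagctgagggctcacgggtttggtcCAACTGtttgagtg
Fos: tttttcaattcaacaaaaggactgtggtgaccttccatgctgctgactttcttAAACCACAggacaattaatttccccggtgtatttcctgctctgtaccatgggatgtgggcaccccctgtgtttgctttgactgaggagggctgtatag

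The full lists held between 91908 and 137335 intervals, and the strongest 50000 were between 36.4% and 54.4% of a list. Scores of the 2 libraries of one genotype and pair correlated across regions at r between 0.907 and 0.960, and those of different genotypes within a pair at 0.905 to 0.940, whereas libraries of the same genotype in different pairs correlated at 0.852 to 0.900. These values describe regions and are not a test, and the main fits hold a term for the pair. Marker scores below are means over all genes of a list, with a gene that had no tested promoter region counted as 0. Of 12 HSPC marker genes, 11 had a tested promoter region, and the mean over the 12 was 71.5 to 73.7 in P300KO_TET2KO and 69.4 to 74.7 in TET2KO. The exception was Ly6a, which encodes the Sca1 surface antigen and had no tested promoter region, so it was counted as 0 in all 8 libraries. Promoters of mature neutrophil genes had a mean score of 5.3998 to 7.31 in P300KO_TET2KO and 6.91 to 10.4 in TET2KO. Of these genes 6 of 8 had no tested promoter region. For red cell genes the means were 10.3 to 17.6 and 6.99 to 16.5, with 4 of 7 genes lacking such a region. For T and NK cell genes they were 22.2 to 26.1 and 23.3 to 24.8, with 6 of 9 lacking one. B cell, macrophage and stromal promoters were between 30.3 and 52.0 in both genotypes. The part of such cells in the results was not tested.

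The peak lists hold no reads over the deleted Ep300 sequence, so they offer no direct check of the deletion. The Ep300 locus with 10 kb either side held 3 tested regions, with a mean score of 53.7, 53.7, 57.3 and 56.5 in P300KO_TET2KO replicates 1 to 4 and 52.1, 32.6, 55.1 and 49.2 in TET2KO replicates 1 to 4. The groups overlapped, and the means of 55.3 ± 1.89 and 47.3 ± 10.1 (SD, n = 4 each) differed by 8.03 (two-sided exact permutation p = 0.0857, and 0.0556 within replicate pairs, the smallest that 36 regroupings allow). Within replicates 1-2 and within replicates 3-4 the genotypes did not overlap, with P300KO_TET2KO higher, and without TET2KO replicate 2 the difference at the Ep300 locus was 3.13. The genotypes were set apart at Mx1. The promoter region of Mx1, an interferon-induced antiviral GTPase (chr16:97462592-97463812), scored 79.2, 79.97, 88.3 and 86.0 in P300KO_TET2KO and 57.9, 48.7, 57.8 and 54.8 in TET2KO. It differed by 28.5 (SE 2.601, limma adjusted p = 0.00012), the smallest adjusted p of all tested regions, shared with a region near Rtl10. In the libraries with intact Tet2 it scored 83.0, 75.2, 83.4 and 85.2 in P300KO and 69.99, 57.3, 48.3 and 51.9 in WT, so all 8 libraries from Mx1-Cre carriers lay above all 8 from mice without it. The Cre transgene is driven by an Mx1 promoter, and reads from the transgene and from the native copy cannot be told apart in these lists.

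Between P300KO_TET2KO and TET2KO 3571 regions rose (7.16% of those tested) while 2738 fell (5.49%). limma called 186 regions higher (0.373%) and 211 lower (0.423%), together 397 (0.796%), and 7397 had an unadjusted p below 0.05. With the replicate number as a block, which ties same-numbered libraries of the 2 genotypes, 108 were called higher and 147 lower, and where a named call was lost with this block its blocked adjusted p is given beside it. Without 1 library limma called 14 regions (without P300KO_TET2KO replicate 4) to 322 (without TET2KO replicate 1) higher and 42 (without TET2KO replicate 4) to 310 (without TET2KO replicate 1) lower, and with no minimum of libraries it called 0 of 63838 (7886 at an unadjusted p below 0.05). Of the 186, 185 were also rising regions, and of the 211, 210 were also falling regions. The called regions moved far in the list. The median difference was 28.1 for regions called higher, with 25.3 within replicates 1-2 and 26.5 within replicates 3-4, and -22.1 for regions called lower, with -19.1 and -21.7.

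**Figure D1:**
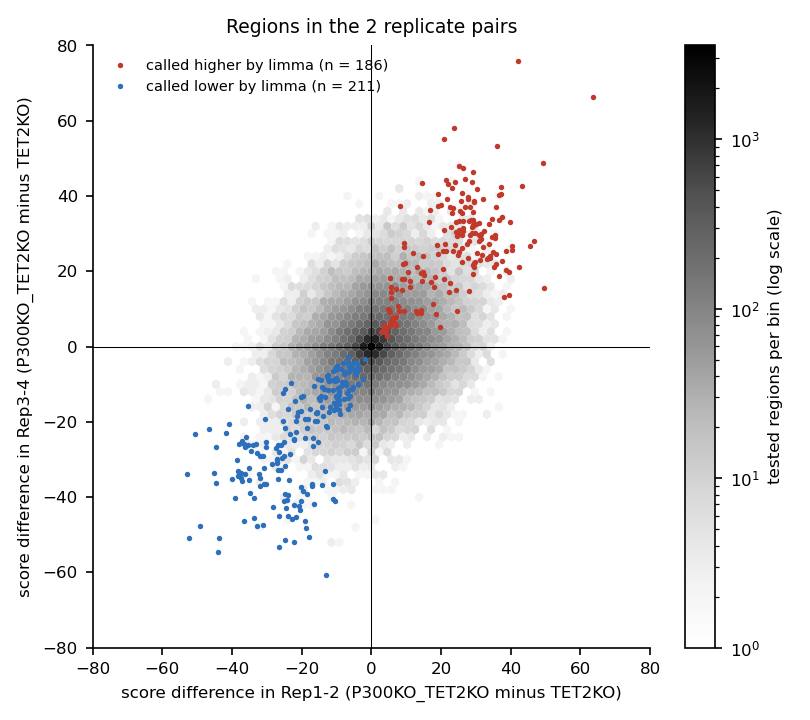
Score difference of each tested region within replicates 3-4 (vertical) against that within replicates 1-2 (horizontal), both P300KO_TET2KO minus TET2KO in score units. Grey shading counts the 49846 tested regions per bin on a log scale, and red and blue points are the 186 regions called higher and the 211 called lower by limma, which lie in the upper right and lower left.

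Regions at 0 in all 4 libraries of one genotype could pass the filter only through the other genotype. There were 242 of them among all tested regions (0.485%), of which 149 were rising and 93 falling, and they made up 12 of the regions called higher and 15 of those called lower. Whether they rose, fell or were called is partly set by the filter, and those described below with their scores are marked as such. In bulk libraries more accessible chromatin per cell and more cells of a given type cannot be told apart, and this holds for every region below. Across tested regions the differences within the 2 pairs correlated at r = 0.29, as a description over regions that share libraries.

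In this ranking a smaller share of the called regions than of the tested regions lay near start sites. Within 3 kb of a transcription start site lay 34.5% of tested regions, 33.5% of rising and 30.0% of falling regions, 18.8% of the regions called higher (35 regions) and 13.3% of those called lower (28 regions). Introns held 47.3% of the regions called higher against 29.0% of all tested regions, and intergenic positions held 54.5% of the regions called lower against 33.0%. These shares depended on what was ranked. When the intervals were ranked by the deposited fold enrichment, 4467 regions rose and 6733 fell, against 3571 and 2738 by −log10 p. Near a start site then lay 13.9% of rising and 68.1% of falling regions, 14.2% of those called higher and 54.5% of those called lower, among 31.1% of tested ones. Widths were alike in the main ranking, with a median of 816 bp over all tested regions, 824.5 bp in those called higher and 836 bp in those called lower. Median GC content within 100 bp of the summit was 53.7%, 50.7% and 54.2%.

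Strings of 10 transcription factor groups were counted within 100 bp of the strongest summit on both strands. Gata strings, AGATAA or TGATAA, were present in 12.3% of tested regions and in 21.2% of rising and 7.67% of falling regions. They were in 47.8% of the regions called higher (89 of 186) and in 5.21% of those called lower (11 of 211). The order was the same outside promoters, with 15.7% of tested regions, 51.0% of the regions called higher and 4.92% of those called lower. With lists of 30000 intervals the shares of regions called higher and lower were 43.8% and 6.71%, with 80000 intervals 47.5% and 5.69%, and with ranking by fold enrichment 32.2% and 4.24%. A match is a description of sequence and not a site of binding.

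The Gata pattern was also visible without any call. The 5110 tested regions outside promoters with a Gata string had a mean score of 40.01, 39.3, 40.7 and 40.5 in P300KO_TET2KO replicates 1 to 4 and 38.6, 37.1, 35.4 and 36.1 in TET2KO replicates 1 to 4. All 4 P300KO_TET2KO libraries lay above all 4 TET2KO libraries. The 27516 regions outside promoters without the string had mean scores of 38.7, 39.0, 41.3 and 41.4 in P300KO_TET2KO and 38.5, 38.1, 41.6 and 41.7 in TET2KO, and there the groups overlapped. Among regions with the string 12.2% rose (625) and 3.19% fell (163), against 6.36% rising and 6.37% falling without it.

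Other strings differed less between the sets. Myb strings, which were CAACTG and CAACGG and the forms TAACTG and TAACGG that start with another base, were in 20.4% of tested regions, in 13.4% of the regions called higher and in 28.4% of those called lower. Rising and falling regions held them in 18.7% and 23.96%, an order that flipped to 19.9% and 18.4% when intervals were ranked by fold enrichment. Under that ranking the order was kept outside promoters, at 20.6% of rising and 22.8% of falling regions. It was also kept among called regions, at 17.1% of those higher and 24.2% of those lower. Cebp strings (TTGCGCAA, TTGCNNAAT or TTACGTAA) were rare, in 2.09% of tested regions, 2.86% of rising and 1.13% of falling regions. The 799 regions outside promoters with a Cebp string had a median difference of 1.76 within replicates 1-2 and 2.66 within replicates 3-4, with 9.76% rising and 2.50% falling. NF-kB strings (GGGANTTTC, GGGGNTTTC or GGGANTTCC) were in 2.69% of regions called higher and 5.21% of those called lower, among 3.22% of tested regions. Ets and PU.1 strings (GAGGAAGT or AGGAAGTG) were above the tested share of 12.7% on both sides, at 18.3% and 17.1%. So were Runx strings (TGTGGTTT, TGCGGTTT or TGTGGTTA), at 11.8% and 10.4% among 7.03%, and the Tal1 E-box CAGATG, at 18.8% and 23.7% among 14.8%. Ctcf strings (AGNGGGCGC) were below the tested share of 4.95% on both sides, at 1.61% and 0.474%. AP-1 strings (TGACTCA or TGAGTCA) and Irf strings (GAAANNGAA) lay between 5.84% and 8.06% in all of these groups.

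**Figure D2:**
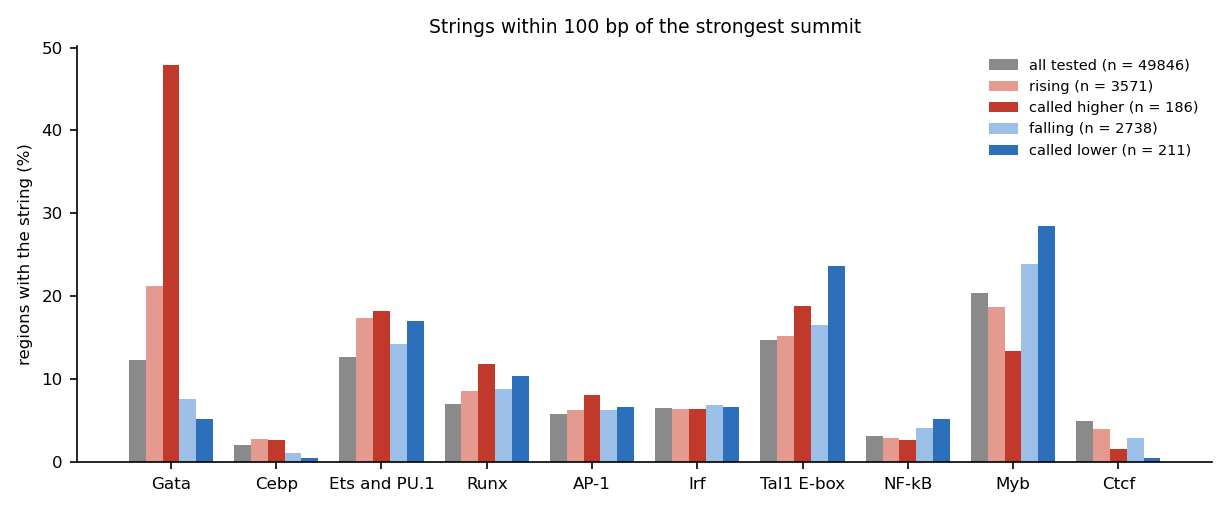
Share of regions (vertical axis, percent) with each group of consensus strings within 100 bp of the strongest summit, for all tested, rising, called higher, falling and called lower regions. The Gata bars run from 5.21% of the regions called lower to 47.8% of those called higher, and the Myb bars run the other way, from 28.4% to 13.4%.

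By the smaller of the 2 pair differences the region that moved farthest up lay 21.2 kb from the start of Cdrt4 (chr11:62929672-62930312). It scored 64.4, 67.3, 74.1 and 58.5 in P300KO_TET2KO and 0, 4.40, 0 and 0 in TET2KO. The groups lay far apart, with a difference of 64.9 (SE 6.21, limma adjusted p = 0.000161). An intron of Arpc1a, which encodes a subunit of the Arp2/3 actin complex, held the next region (chr5:145097867-145098881). It scored 49.1, 62.9, 61.3 and 60.8 in P300KO_TET2KO and 6.07, 7.20, 7.56 and 17.0 in TET2KO. The groups did not overlap and differed by 49.1 (SE 6.19, limma adjusted p = 0.00198). Both sequences are among those shown above with a Gata string close to the summit.

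The other regions among the 12 that rose most lay near genes of varied function. A promoter region of Mep1a, which encodes a metalloprotease subunit, scored 42.0 to 56.6 in P300KO_TET2KO and 0, 25.3, 0 and 0 in TET2KO (difference 42.9, limma adjusted p = 0.0101). It held a Gata string, and so did regions at Rnf130, a ring finger protein, Skap2, an adaptor of Src family kinases, and Tspan33, a tetraspanin. Their differences were 44.7, 38.5 and 36.4, with limma adjusted p of 0.0101, 0.0159 and 0.0156. Regions called higher without a Gata string lay at Srpk2, a kinase of splicing factors (38.9), Dcaf1, a substrate receptor of a ubiquitin ligase (39.7), and Rnpepl1, of an aminopeptidase family (35.99), with limma adjusted p of 0.0288, 0.0159 and 0.0153. The differences at Atf6, a transcription factor of endoplasmic reticulum stress (34.1), and at Ahctf1, which encodes a nuclear pore protein (38.1), did not pass limma, with adjusted p of 0.0737 and 0.0731, the latter 0.0376 with the replicate block. Another of the 12, 190.4 kb from Asap2 and assigned to no gene, followed the pair as well as the genotype. It scored 75.8, 75.5, 73.5 and 78.1 in P300KO_TET2KO but 20.98, 46.2, 0 and 0 in TET2KO (difference 58.9, limma adjusted p = 0.00142), and 73.4, 69.0, 0 and 0 in WT.

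**Figure D3:**
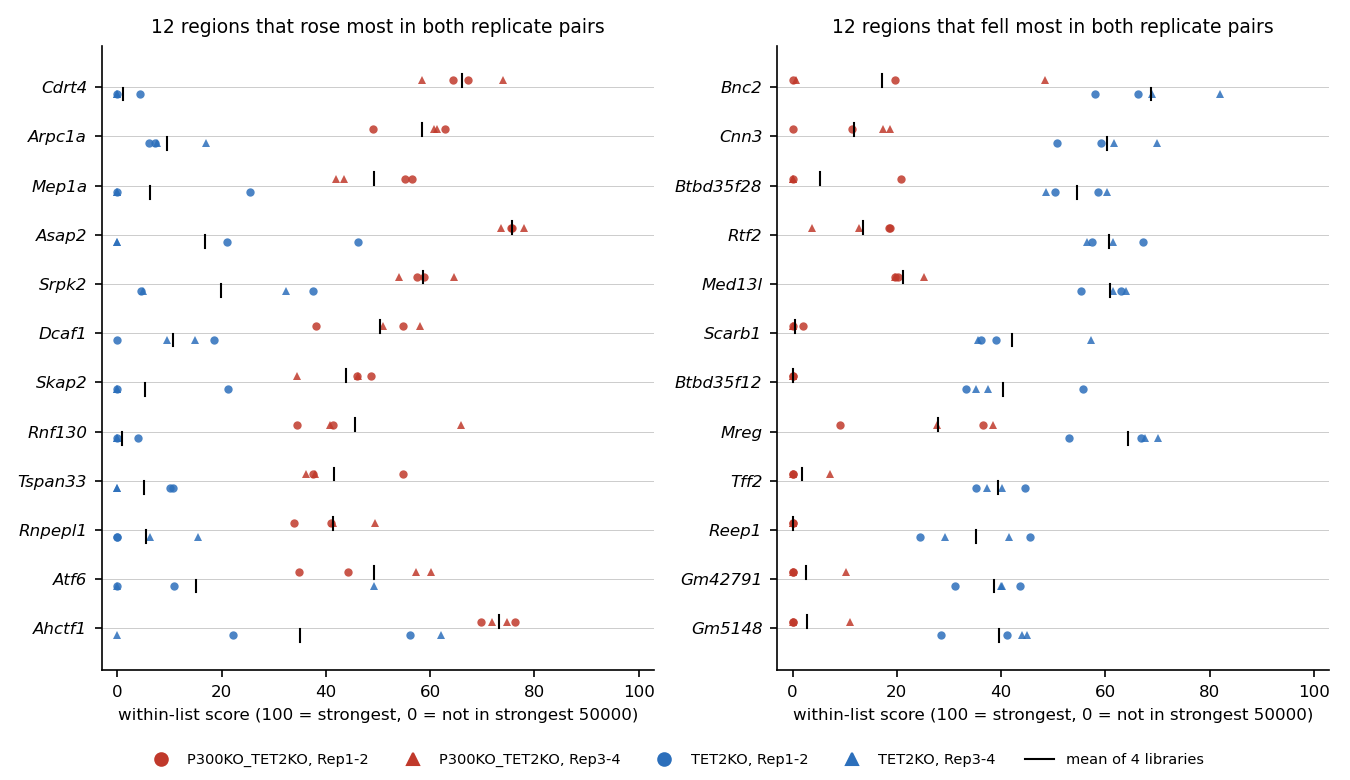
Within-list scores (horizontal axis, 0 to 100) in each of the 8 libraries for the 12 regions that rose most and the 12 that fell most by the smaller of the 2 pair differences. Circles are replicates 1-2, triangles replicates 3-4, red P300KO_TET2KO, blue TET2KO and black bars the mean of 4 libraries, and the colors overlap at Atf6 alone, where TET2KO replicate 3 at 49.2 lies among the P300KO_TET2KO libraries at 34.8 to 60.2.

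Among the regions that fell most, one 10.6 kb from Bnc2, which encodes the zinc finger protein basonuclin 2, scored 19.6, 0, 48.4 and 0.642 in P300KO_TET2KO and 66.2, 58.0, 68.9 and 82.0 in TET2KO. The P300KO_TET2KO libraries were spread widely but all lay below TET2KO, with a difference of -51.6 (SE 8.41, limma adjusted p = 0.0126). A region 56.7 kb from Cnn3, an actin-binding calponin, differed by -48.5 (adjusted p = 0.00198 by limma). A region 2.95 kb upstream of Rtf2, a protein of replication termination, scored 3.68 to 18.8 in P300KO_TET2KO and 56.5 to 67.3 in TET2KO (difference -47.3, limma adjusted p = 0.002).

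Several regions were at or near 0 in the P300KO_TET2KO libraries. A region 25.5 kb from Scarb1, which encodes a receptor for high-density lipoprotein, scored 0, 1.94, 0 and 0 in P300KO_TET2KO and 36.2, 39.0, 35.6 and 57.2 in TET2KO (difference -41.5, limma adjusted p = 0.0101). A region 9.68 kb from Tff2, a secreted trefoil peptide, scored 0, 0, 0 and 7.15 against 35.1, 44.6, 37.4 and 40.2 (difference -37.5, limma adjusted p = 0.0103). An intron of Reep1, which shapes the endoplasmic reticulum, was at 0 in all 4 P300KO_TET2KO libraries and at 24.5, 45.5, 29.3 and 41.5 in TET2KO, so it was tested only through the TET2KO libraries. All of these regions still had an interval in the full lists of all 8 libraries, so a 0 here marks a place below the limit. The rest of the 12 lay near Med13l, of the Mediator kinase module (-39.8), Mreg (-36.4), the predicted genes Gm42791 (-36.1) and Gm5148 (-36.8), and 2 members of the Btbd35f family on the X chromosome. The 2 X-linked regions, of 219 and 199 bp, had differences of -49.3 and -40.4, the latter at 0 in all P300KO_TET2KO libraries and so tested only through TET2KO. They belong to a multigene family, and whether reads were shared between its copies was not tested. Of the 22 called regions among these 24, 11 kept the call whichever of the 8 libraries was left out, and 2, at Srpk2 and Tspan33, lost it without 5 of the 8.

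Regions were then gathered by gene. Of the tested regions 45879 lay within 100 kb of the start site of a protein-coding gene and were assigned to the nearest, which gave 15833 genes. At least 1 rising region was held by 2904 genes (18.3%), at least 1 falling region by 2070 (13.1%), and both kinds by 440. On the mean score over a gene's regions limma called 36 genes higher (0.227%) and 22 lower (0.139%), and 2418 genes had an unadjusted p below 0.05. With the replicate block 9 genes were called higher and 2 lower, and 48 of the 58 called genes lost the call. With 1 library left out, genes called higher by limma were between 3 (without P300KO_TET2KO replicate 3) and 31 (without TET2KO replicate 2), and genes called lower by limma between 2 (without P300KO_TET2KO replicate 3 or TET2KO replicate 3) and 13 (without TET2KO replicate 2). Ranked by fold enrichment the number of genes called higher by limma was 401, and 738 were lower. The smallest p-values belonged to genes with 1 or 2 regions. Cdhr4, a cadherin-related gene, had 1 region at 57.0, 54.4, 67.0 and 61.1 in P300KO_TET2KO and 24.7, 26.6, 30.1 and 33.0 in TET2KO (difference 31.3, SE 2.31, limma adjusted p = 0.000855). Cdrt4 with 2 regions, Klc4, a kinesin light chain, Luzp2 and Rnpepl1 followed, with differences of 38.1, 33.2, 37.9 and 19.2, of which the last 2 had adjusted p of 0.0582 and 0.0639 by limma with the replicate block.

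At the other end Rtl10, derived from a retrotransposon Gag gene, was lower by 11.2 (SE 1.06, limma adjusted p = 0.00376). Its only region was 276 bp wide and lay 34.4 kb from its start, in an intron of Gnb1l. Btbd35f28 with its single region was lower by 49.3 (limma adjusted p = 0.00541), and Negr1 and Tff2 by 20.7 and 19.6 (limma adjusted p = 0.0726 and 0.0769 with the replicate block). Gbp4, an interferon-inducible GTPase, had 1 region at 0, 11.5, 7.91 and 0 in P300KO_TET2KO and 34.6, 30.4, 42.7 and 35.4 in TET2KO. It was lower by 30.9 (SE 4.14, limma adjusted p = 0.027, and 0.0726 with the replicate block), and no library of one genotype reached the other. Its neighbor and relative Gbp10, picked after its values were seen, was lower by 14.6 over 4 regions (limma adjusted p = 0.0353, and 0.0971 with the replicate block).

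Some genes held several regions that moved the same way. Il1r1, the signaling receptor of interleukin-1, had 4 rising regions of 9 and none falling, with mean scores of 39.0, 39.8, 39.7 and 37.0 in P300KO_TET2KO and 32.8, 30.6, 32.0 and 32.1 in TET2KO. The libraries of the 2 genotypes did not overlap, but the difference of 6.99 (SE 2.25) was not called over all genes (limma adjusted p = 0.203). Camk2d, a calcium-dependent kinase, Vps37b, of the ESCRT machinery, Ank2, an ankyrin, and Mical3 each had 4 rising regions too, of 8 to 14. All 3 regions of Ccnq, the cyclin partner of Cdk10, were rising (difference 12.7, limma adjusted p = 0.0458, and 0.121 with the replicate block), as were 3 of 6 regions of Abtb2 (13.8, adjusted p = 0.0496, and 0.0971 with the replicate block) and 3 of 4 of Vps54. Among genes with falling regions and no rising one, Cmklr1, the receptor of the chemoattractant chemerin, had 4 of 9 (difference -9.67, limma adjusted p = 0.132). E130114P18Rik and Sipa1l2 also had 4 falling regions each. Slc27a6, Slc37a3, Fabp5, a fatty acid binding protein, Snx30 and Pde10a, a phosphodiesterase, had 3 each.

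Lists of genes for 25 cell types and pathways were read against all assigned regions, of which 7.33% rose and 5.29% fell. Genes of mast cells, basophils and eosinophils stood at one end, with 12 of 47 regions rising (25.5%) and 0 falling. The list's regions had a mean score of 35.4, 35.9, 35.5 and 37.2 in P300KO_TET2KO and 31.0, 29.6, 29.5 and 28.3 in TET2KO, without overlap. Their median difference was 7.35, against 0.333 over all assigned regions. limma called 0 of the 47 regions and 0 of the 14 genes. At an unadjusted p below 0.05 there were 10 regions higher and 1 lower, and 6 genes higher and 0 lower. Over everything tested, 7397 of 49846 regions and 2418 of 15833 genes had such a p in either direction. The list's rising regions belonged to 10 of the 14 genes that had a region. Of its 47 regions 16 (34.0%) held a Gata string, against 11.8% of all assigned regions. Of its 12 rising regions 4 held the string, so the rise was not confined to regions with it. Of the list, 4 of 19 regions rose with the strongest 30000 intervals, 16 of 81 with 80000, and 10 of 52 when ranked by fold enrichment. Of all assigned regions 7.13%, 7.59% and 8.86% rose in these settings. Among regions with a score in all 8 libraries 5 of 26 rose, against 7.30% of all assigned regions of that kind. Without any 1 library 11 to 18 of 44 to 46 regions of the list rose. Leaving out a library also raised the number of rising regions among all tested, from 3571 to between 4876 and 5759. In all of these settings 0 or 1 region of the list fell.

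**Figure D4:**
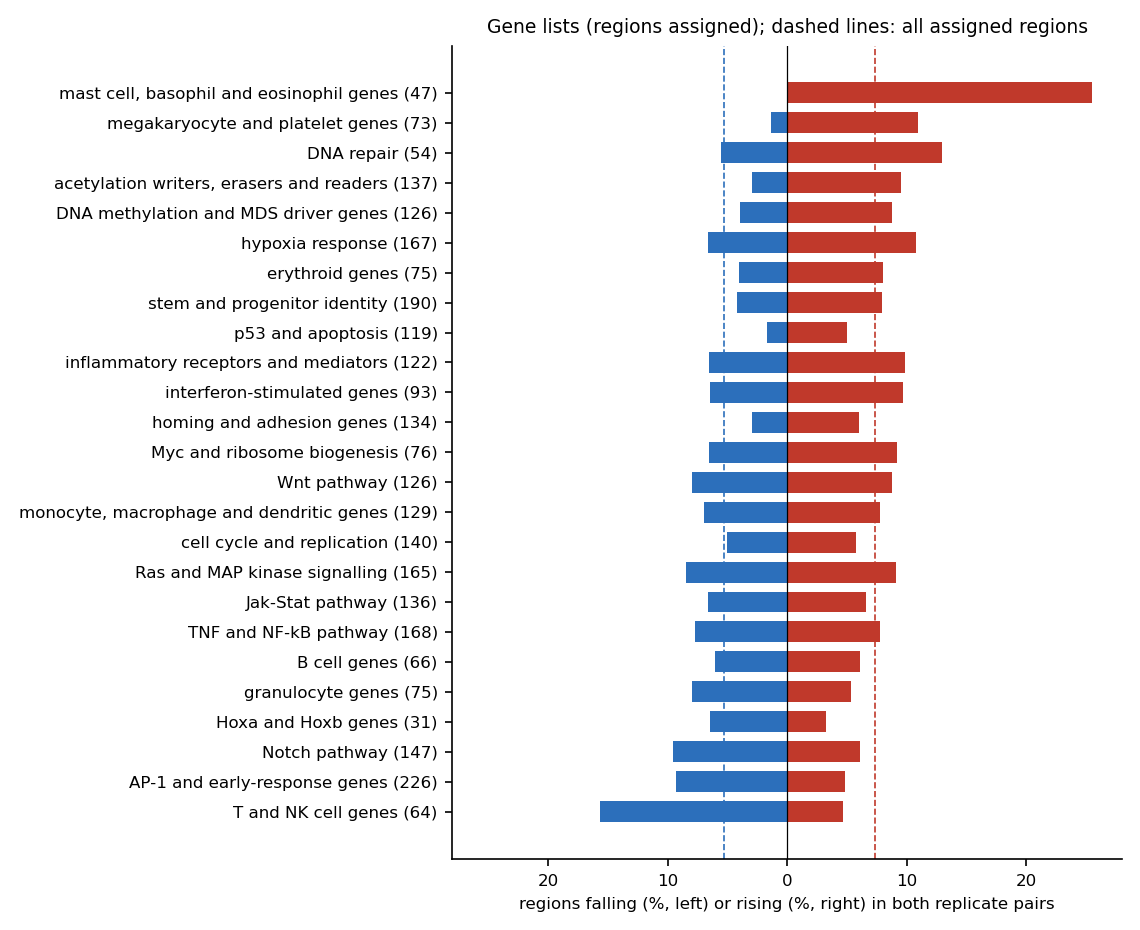
Share of the regions assigned to each of 25 gene lists that fell (blue, to the left) or rose (red, to the right) in both replicate pairs, in percent, with the number of regions in parentheses and dashed lines at the shares over all assigned regions, 5.29% and 7.33%. Mast cell, basophil and eosinophil genes at the top had 25.5% rising and none falling, and T and NK cell genes at the bottom 4.69% rising and 15.6% falling.

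Within that list Mitf, the transcription factor that mast cells depend on, had 3 rising intronic regions of 9. One of them, with a Gata string, scored 15.6, 11.0, 20.5 and 44.0 in P300KO_TET2KO and 0 in all 4 TET2KO libraries (limma adjusted p = 0.0958), so it was tested only through the P300KO_TET2KO libraries. A region 19.5 kb from Il1rl1, which encodes the interleukin 33 receptor ST2, scored 29.8, 38.2, 46.9 and 51.4 against 23.97, 0, 17.9 and 29.8. These groups touched across the pairs and separated within each pair. A region of Il5ra, the eosinophil receptor for interleukin 5, scored 20.1, 11.8, 23.2 and 23.0 against 0, 0, 7.08 and 2.104, and the promoter region of Cpa3, mast cell carboxypeptidase, 18.4, 13.2, 8.02 and 11.5 against 2.31, 0, 0 and 0. Both hold a Gata string. Hdc, the enzyme that makes histamine, Alox5, of leukotriene synthesis, the chemokine receptor Ccr3, Cd200r3, the protease Prss34 and Gata2 had 1 rising region each. Ms4a2, Fcer1a, Epx and Prg2, which encode subunits of the IgE receptor and eosinophil granule proteins, had no tested region. At the gene level Il5ra (12.4), Ccr3 (9.36), Alox5 (7.27) and Mitf (7.16) had the smallest p, and their limma adjusted p were 0.131 to 0.276.

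Megakaryocyte and platelet genes had 8 rising regions and 1 falling of 73. The promoter region of Tbxas1, thromboxane synthase, scored 66.3, 64.5, 68.1 and 66.5 in P300KO_TET2KO and 49.6, 44.4, 46.4 and 51.4 in TET2KO, and was called higher (18.4, limma adjusted p = 0.0293, and 0.0504 with the replicate block). Promoter regions of Itga2b (6.72, adjusted p = 0.0563), Gp1ba and Itgb3, which encode platelet adhesion receptors, rose without a limma call. With ranking by fold enrichment the list had 6 rising and 12 falling regions of 66, where 14.2% of all assigned regions fell and 8.86% rose. As genes Itga2b (7.15), Tbxas1 (10.1), Cd9 (7.30) and Gp5 (11.9) were not called. Erythroid genes had 6 rising and 3 falling regions of 75, close to the shares over all assigned regions, and limma called 0 of them. At an unadjusted p below 0.05 there were 9 higher and 3 lower, beside 7397 of all 49846 tested regions. By fold enrichment the erythroid list had 3 rising and 6 falling of 67. Its gene means were -12.8 for Alas2, 5.71 for Ank1, 2.38 for Epor and 4.87 for Nfe2, none called.

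Genes of stem and progenitor identity had 15 rising and 8 falling regions of 190. Ranked by fold enrichment they had 11 and 35 of 170, where 8.86% of all assigned regions rose and 14.2% fell. The 2 regions of this list called by limma were lower. An intron of Runx1, a master factor of blood formation, held one at 9.89, 5.38, 27.8 and 18.7 in P300KO_TET2KO and 44.3, 52.7, 42.8 and 44.9 in TET2KO (difference -30.7, limma adjusted p = 0.0404), and the other was near the surface marker Prom1 (-28.6, adjusted p = 0.0433). With the replicate block these p were 0.0654 and 0.0583. By gene mean Prom1 (-17.0) and the Lim domain cofactor Ldb1 (-6.72) were on the lower side and Myb (6.61) and Ikzf1 (6.23) on the higher, none called. Esam, an adhesion molecule of endothelium and stem cells from the homing list, was called higher as a gene, at 50.1, 52.5, 43.5 and 42.0 against 33.8, 30.9, 30.3 and 29.2 over 4 regions (difference 15.96, limma adjusted p = 0.0346, and 0.0971 with the replicate block). Its gene-level call held in 4 of 17 alternative fits. Homing and adhesion genes as a list had 8 rising and 4 falling regions of 134, and Hoxa and Hoxb genes 1 and 2 of 31. limma called 0 regions in either. At an unadjusted p below 0.05 the counts were 11 higher and 9 lower, and 0 and 0, beside 7397 of all 49846 tested regions. Epcam (6.43), Itgb2 (4.47) and Selplg (-2.90) of the homing list and Hoxa7 with 2 falling regions (-3.97), Hoxb2 (5.92), Hoxb6 (3.33) and Hoxa11 (-4.70) were not called as genes, and by fold enrichment the lists had 14 rising and 20 falling regions of 125 and 3 and 2 of 25.

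Granulocyte genes had 4 rising and 6 falling regions of 75. A region 6.17 kb from Cebpe, a factor of late granulocyte maturation, was high in the list in both genotypes, at 89.0, 88.8, 89.3 and 91.2 in P300KO_TET2KO and 83.5, 83.8, 81.1 and 80.8 in TET2KO. It was called higher by 7.25 (SE 1.13, limma adjusted p = 0.0101), but by fold enrichment the difference was -3.20 (limma adjusted p = 0.691). The promoter region of Gfi1, a transcriptional repressor of granulocyte and stem cell programs, was called lower by 14.3 (limma adjusted p = 0.038, and 0.0603 with the replicate block). As genes Cebpe (9.13), the granule protein gene Ltf (-7.24), and the metalloprotease genes Mmp8 (-10.2) and Mmp9 (-5.32) were not called. Monocyte, macrophage and dendritic genes had 10 rising and 9 falling regions of 129. Id2, an inhibitor of E proteins that dendritic and innate lymphoid cells need, held 2 regions called higher, 67.8 and 60.3 kb from its start, by 29.8 and 16.9 (limma adjusted p = 0.0404 and 0.0485, or 0.0621 and 0.0709 with the replicate block). Cd68 (5.88), Id2 (6.49), Csf2rb (5.35) and Siglech (-8.23) were not called as genes. By fold enrichment the granulocyte list had 3 rising and 9 falling regions of 65 and the monocyte list 8 and 16 of 120.

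Lymphoid genes were divided. B cell genes had 4 rising and 4 falling regions of 66, and the only called region lay in an intron of Foxo1, a factor of B cell and stem cell maintenance. It scored 26.6, 29.1, 24.8 and 22.0 in P300KO_TET2KO and 0 in all 4 TET2KO libraries (25.6, limma adjusted p = 0.0303, and 0.0558 with the replicate block). The region was tested only through the P300KO_TET2KO libraries in which it scored, and its sequence shown above holds 2 Gata strings. By gene mean, Cd72, a B cell surface receptor (-9.25), Ebf1, a founding factor of the lineage with 2 falling regions (-6.92), and the kinase gene Blk (-5.76) were on the lower side and the adaptor Blnk on the higher (5.73), none of them called. By fold enrichment the list had 4 rising and 7 falling regions of 66. T and NK cell genes had 10 falling regions of 64 (15.6%) and 3 rising. Called lower were regions near Tcf7, the factor that opens the T cell program (-14.4, limma adjusted p = 0.0224), in the promoter of the kinase gene Lck (-11.5, adjusted p = 0.0288) and in an intron of Ets1 (-29.0, adjusted p = 0.0434, and 0.0631 with the replicate block). The Ets1 region scored 45.0, 25.4, 14.1 and 22.8 in P300KO_TET2KO and 54.3, 55.6, 58.6 and 54.9 in TET2KO. Further falling regions were at Cd28 and Cd2, surface receptors of T cells, at Tbx21 and at Klrb1c, the last at 0 in all P300KO_TET2KO libraries and so tested only through TET2KO, without a call, and the 3 rising regions lay at Gata3, with 2, and Tbx21. At the gene level no member was called, with mean differences of -5.31 for Lck, -10.6 for Cd28, -8.41 for Cd4 and 9.29 for Lat, an adaptor of T cell receptor signaling (limma adjusted p between 0.0859 and 0.275). By fold enrichment the list had 13 falling and 4 rising regions of 59.

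AP-1 and early-response genes, which stimulated cells switch on within minutes, held 21 falling and 11 rising regions of 226. A region 21.5 kb from Dusp2, a phosphatase of MAP kinases, scored 24.3, 21.8, 16.8 and 6.96 in P300KO_TET2KO and 60.6, 49.3, 48.0 and 45.6 in TET2KO (difference -33.4, limma adjusted p = 0.0224). A narrow region 16.045 kb from Fos, an AP-1 subunit, was at 0 in all P300KO_TET2KO libraries and at 50.3, 33.3, 25.5 and 20.4 in TET2KO (-32.4, limma adjusted p = 0.0276), so it was tested only through the TET2KO libraries. A region near Zfp36l2, which encodes an mRNA decay factor, was also called lower (-8.35, limma adjusted p = 0.0279). Jund had 2 falling regions of 3 and Btg1 1 of 1, with gene means of -10.8 and -3.25 that were not called, and neither were Dusp2 (-10.4) and Nr4a2 (5.88) as genes. Ranked by fold enrichment the list had 35 falling and 8 rising regions of 184.

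Signaling pathways held both kinds of region. In the Notch pathway 9 regions rose and 14 fell of 147, and 1 region, 80.3 kb from the target gene Hes1, was called lower, at 0 in all P300KO_TET2KO libraries against 23.2, 21.2, 35.0 and 49.0 (-32.1, limma adjusted p = 0.0268), and was thus tested only through the TET2KO libraries. The single region of Hes5, another target, was lower by 17.5 without a call (limma adjusted p = 0.11 at the gene level). By gene mean Numb, an inhibitor of Notch (6.17), and the coactivator Maml1 (5.82) were on the higher side and Hes1 on the lower (-6.25), without a call. In the Wnt pathway, with 11 rising and 10 falling regions of 126, regions of Lef1, a factor at Wnt targets (-32.0), and of Bcl9, a coactivator of beta-catenin (-10.8), were called lower, the latter with a limma adjusted p of 0.0512 with the replicate block. Lef1 (-13.7) and Tcf7l1 (-10.3) were lower and Dvl3 (2.36) and Tcf7l2 (4.39) higher by gene mean, again without a call. In the TNF and NF-kB pathway 13 regions rose and 13 fell of 168. The 3 called were lower, nearest to Nfkbia, the inhibitor of NF-kB, in the kinase gene Map3k8 (-34.2) and nearest to the receptor gene Tnfrsf1b but within its neighbor Tnfrsf8 (-27.1, limma adjusted p = 0.0516 with the replicate block). The Nfkbia region, 45.4 kb from its start, scored 68.8, 73.9, 76.9 and 76.6 in P300KO_TET2KO and 82.6, 84.9, 84.3 and 86.2 in TET2KO (-10.5, limma adjusted p = 0.0101), and the sign turned to 10.6 (limma adjusted p = 0.816) when only 100 bp either side of summits were matched. By gene mean the signal adaptor Traf2 (9.58), Cflar (6.34) and Nfkbie (5.68) were on the higher side and Map3k8 (-5.84) on the lower, and none was called. Ranked by fold enrichment, the Notch, Wnt and TNF and NF-kB lists had 9 rising and 22 falling regions of 131, 8 and 23 of 126, and 8 and 26 of 144.

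Inflammatory receptors and mediators had 12 rising and 8 falling regions of 122. A narrow region 12.4 kb from Ifngr2, a subunit of the interferon gamma receptor, was called lower, at 71.6, 74.5, 55.9 and 53.7 against 87.1, 92.6, 81.0 and 81.3 (-21.6, SE 2.23, limma adjusted p = 0.000268). A region near Il10ra, the receptor of the cytokine Il10, with a Gata string, was called higher (29.4, limma adjusted p = 0.0347, and 0.058 with the replicate block). By gene mean the chemokine gene Ccl3 (-18.2), Tlr9 (-7.27) and Il4ra (-4.55) were on the lower side beside Il1r1 on the higher, none called. Of the Jak-Stat pathway, with 9 rising and 9 falling regions of 136, regions near the shared cytokine receptor subunit Il6st (-16.7, adjusted p = 0.0152) and the kinase gene Jak1 (-23.4, adjusted p = 0.041, and 0.0603 with the replicate block) were called lower by limma. Of interferon-stimulated genes, with 9 rising and 6 falling of 93, Ifi44 (25.4) joined Mx1 among the regions called higher, and regions nearest to the transcription factor genes Irf4 (-18.1) and Irf3, the latter within Scaf1 (-29.98), were called lower. With the replicate block limma gave adjusted p of 0.066 for Ifi44, 0.051 for Irf4 and 0.0582 for Irf3. Gene means that were not called were Il6st (-7.06), Pim2 (-6.88), Jak3 (-4.90) and Socs5 (4.12) for the Jak-Stat list and Mx1 (14.3), Oas1a (12.5), Irf3 (-14.9) and Irf4 (-7.70) for the interferon list. With ranking by fold enrichment, where 8.86% of all assigned regions rose and 14.2% fell, these lists had 12 rising and 17 falling of 125 inflammatory, 6 and 28 of 124 Jak-Stat and 6 and 17 of 82 interferon-stimulated regions. Ras and MAP kinase genes had 15 rising and 14 falling regions of 165. Rasgrp1, an activator of Ras, held a region called lower (-33.4, limma adjusted p = 0.0595 with the replicate block), and Dusp5, a nuclear phosphatase of ERK, was called lower as a gene, at 32.1, 33.5, 41.5 and 44.0 against 46.6, 45.9, 54.7 and 59.2 over 6 regions (-13.8, limma adjusted p = 0.0346, and 0.0971 with the replicate block). The Dusp5 call held in 1 of 17 alternative fits. Rasgrp4 (8.43), Rasgrp1 (-12.2) and Spry4 (-5.48) were not called as genes, and by fold enrichment this list had 12 rising and 25 falling regions of 159.

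Of metabolic and housekeeping lists, hypoxia genes had 18 rising and 11 falling regions of 167, with a region of the oxygen sensor Egln1 called lower (-34.5, limma adjusted p = 0.028). Cell cycle and replication genes had 8 and 7 of 140, with a region nearest to Rrm1, of ribonucleotide reductase, but within Stim1 called higher (29.5, limma adjusted p = 0.066 with the replicate block) and Ccnd3, cyclin D3, called lower (-26.0). DNA repair genes had 7 and 3 of 54, and p53 and apoptosis genes 6 and 2 of 119. limma called 0 regions in these 2 lists. At an unadjusted p below 0.05 there were 6 higher and 4 lower, and 2 higher and 7 lower, beside 7397 of all 49846 tested regions. Gene means without a call were Egln1 (-13.2), Aldoa (4.08), Mxi1 (6.62) and Ndrg1 (6.16) of the hypoxia list, Rrm1 (15.1), Mcm3 (2.44), Cdk4 (-2.22) and E2f1 (5.57) of the cell cycle list, Xrcc5 (-8.74), Pold1 (1.31), Nbn (2.66) and Lig4 (-1.70) of the repair list, and Bcl2l1 (6.07), Trp53 (4.49), Ccng1 (3.05) and Bik (10.3) of the p53 list. Ranked by fold enrichment these 4 lists had 14 rising and 32 falling of 167, 7 and 35 of 123, 3 and 16 of 57, and 7 and 16 of 104. Myc and ribosome biogenesis genes had 7 and 5 of 76, and Srm, spermidine synthase, was called higher both as a region (20.6, limma adjusted p = 0.0303) and as a gene (10.2, adjusted p = 0.0458, and 0.101 with the replicate block), the latter in 3 of 17 alternative fits. Nolc1 (8.12), Nop2 (-2.64) and Nop56 (6.03) were not called, and by fold enrichment the list had 8 rising and 16 falling regions of 69.

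Chromatin regulators were also examined. Acetylation writers, erasers and readers, a list that includes the deleted Ep300, had 13 rising and 4 falling regions of 137, with a region at the Kat5 acetyltransferase gene called higher (18.5, limma adjusted p = 0.0356) and 3 rising regions at the deacetylase gene Hdac4. DNA methylation and MDS driver genes had 11 and 5 of 126. Here Cux1, a homeobox gene on a chromosome arm often lost in myeloid neoplasms, held a region called higher with a Gata string (25.9) and Idh2, isocitrate dehydrogenase, one called lower (-27.2). With the replicate block limma gave adjusted p of 0.0732 and 0.0695. Ranked by fold enrichment these lists had 6 rising and 21 falling of 118 and 8 rising and 30 falling of 111. Their gene means without a call were Kat5 (8.81), Ncoa2 (7.80), Hdac4 (6.37) and Ep300 with 4 assigned regions (9.41), and Zrsr2 (12.5), Rad21 (-3.01), Idh2 (-4.71) and Tet3 (4.35). Over the 25 lists limma called 36 of 2877 regions (1.25%), against 0.796% of all tested regions. Of these calls 3, at Mx1, Ifngr2 and Nfkbia, held whichever library was left out, and 27 were lost without at least 5 of the 8 libraries in turn.

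The regions called here were next read in the libraries with intact Tet2, which took no part in the calls. Of the 186 regions called higher, 171 (91.9%) had a higher mean score in P300KO than in WT, against 57.0% of all tested regions, and 49 rose in both pairs of that comparison while 0 fell. Of the 211 called lower, 199 (94.3%) were lower in P300KO than in WT, against 42.5% of all, and 86 fell while 0 rose. P300KO against WT had 5.85% rising and 3.9% falling regions among all tested. The differences were smaller with Tet2 intact, with a median of 12.3 and -11.0 against 28.1 and -22.1. The median score of the regions called higher rose from 22.6 (WT) to 37.8 (P300KO) and from 12.8 (TET2KO) to 49.5 (P300KO_TET2KO), and that of the regions called lower went from 68.6 to 54.6 and from 68.6 to 46.6. Selection on the comparison without Tet2 favors larger values there, so the sizes in the 2 backgrounds are set side by side only.

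**Figure D5:**
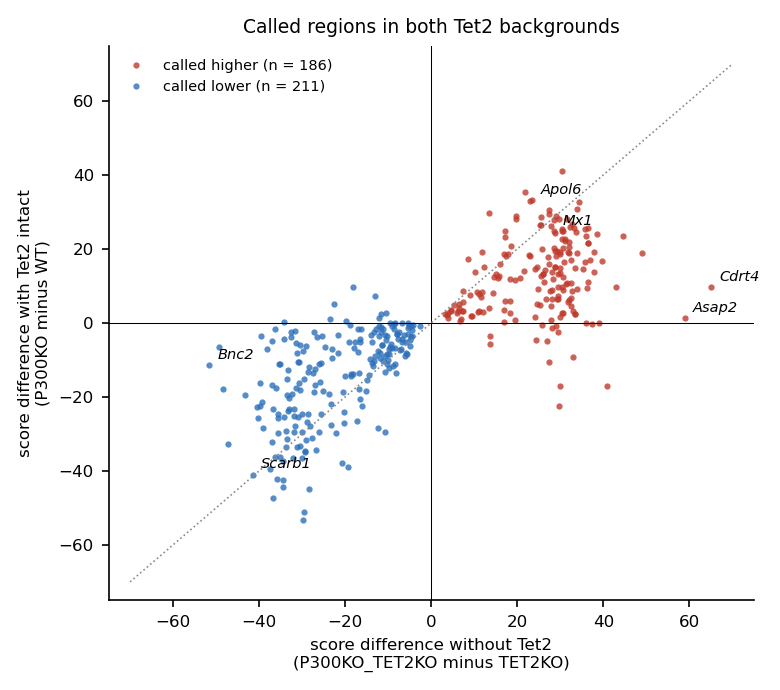
Score difference of the called regions with intact Tet2 (vertical axis, P300KO minus WT) against that without Tet2 (horizontal axis, P300KO_TET2KO minus TET2KO), in score units, with the dotted line where they are equal. Red points are the 186 regions called higher, of which 171 lie above 0 on the vertical axis, and blue points the 211 called lower, of which 199 lie below 0.

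Tested directly, limma found no region past the threshold for P300KO against WT (0 of 49846, with 5105 at an unadjusted p below 0.05). For the difference between the 2 p300 comparisons, fitted over all 16 libraries, 1 region of 49846 passed (2886 unadjusted), a region near Alkbh8 with a difference of -8.42 between them (SE 1.18, adjusted p = 0.0309). The Scarb1 and Tff2 regions had P300KO minus WT differences of -41.0 and -39.4, beside -41.5 and -37.5 without Tet2. The Cdrt4 region, in contrast, was at 0 in all 4 WT libraries and at 0, 22.3, 6.85 and 9.70 in P300KO, and its 2 differences lay 55.2 apart (SE 8.88, limma adjusted p = 0.0527). The 2 differences for Mx1 lay 3.72 apart (limma adjusted p = 0.944). Of the mast cell, basophil and eosinophil regions the median P300KO minus WT difference was 4.03, against 0.864 over all assigned regions.

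Loci that the study singles out gave small differences. Myb, with 110 kb upstream and 10 kb downstream, held 13 regions with mean scores of 37.3, 36.03, 35.3 and 36.6 in P300KO_TET2KO and 32.9, 31.2, 27.6 and 25.0 in TET2KO. The 4 libraries of each genotype did not overlap, and the means of 36.3 ± 0.863 and 29.2 ± 3.56 (SD, n = 4 each) differed by 7.12 (two-sided exact permutation p = 0.0286, as low as 70 regroupings can go, with 0.0556 when regrouped within pairs and 0.171 after adjustment over 6 loci). One region, 42.4 kb from the start, was rising, at 7.81, 18.3, 29.2 and 26.2 against 0 in all TET2KO libraries, and was tested only through the P300KO_TET2KO libraries. Over the other 12 regions the Myb locus scored 39.7, 37.5, 35.8 and 37.5 in P300KO_TET2KO and 35.7, 33.8, 29.9 and 27.1 in TET2KO, a difference of 6.01 with the same exact permutation p, and the lowest P300KO_TET2KO library then lay just above the highest TET2KO library. Notch1 held 8 regions, 2 rising and 2 falling, and its means differed by -1.12 (exact permutation p = 0.4). Tet2 differed by 4.15 (exact permutation p = 0.143), Dntt, a lymphoid polymerase gene, by -0.871 (exact p = 0.8286) and the Hoxb cluster by 0.698 (exact p = 0.743), with overlap between the genotypes at each of these loci.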

How the data were processed

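ATAC-seq was performed on HSPCs from 4 genotypes with 4 libraries each, and each library was a pool of 2 mice, so p-values measure the spread between these pools. According to the submitters' processing notes, reads were trimmed with cutadapt 1.9.1 and aligned to mm10 with Bowtie2 2.2.6, and peaks were called with MACS2 2.1.0. The authors deposited 1 peak list per library, with the fold enrichment at each summit, the −log10 p and the −log10 q. The lists hold no read counts, so the depth behind a value is unknown and no counting interval can be given.

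The members and gene lists were chosen with earlier results of these data known. In each library the 50000 strongest intervals by the deposited −log10 p were ranked and scored from 100 to 0, intervals of the 8 libraries that overlapped by 1 bp or more were joined into regions, and a region was tested with a score above 0 in at least 4 libraries. The −log10 q values were not used. Regions within 100 kb of a protein-coding start site (GENCODE M21, GRCm38) were assigned to the nearest gene, and those within 3 kb were called promoter regions. limma 3.58.1 (R 4.3.3) was fitted with terms for genotype and for the set of replicates (1-2 or 3-4). The labels name a merged peak file for replicates 1-2 only, and what else differed between the sets is not given in the sources used here. Same-numbered libraries of the 2 genotypes deviated together from their genotype means (r 0.364, 0.326, 0.406 and 0.464 over regions for replicates 1 to 4). These deviations include the difference between the 2 sets, which the main fit already holds. Within a set the differences of replicate 1 minus 2 and 3 minus 4 correlated between genotypes at r of only 0.00541 and 0.0389. Neither the labels nor these values therefore show a pairing by number beyond the set. A fit with the replicate number as a block was run beside the main one as an alternative. Tables were handled in Python 3.11.15 with pandas 2.3.3 and numpy 2.4.6, exact tests came from scipy 1.17.1, sequences were read through pysam 0.24.0, figures were drawn in matplotlib 3.10.9, and the fits were tested on simulated data.

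Named were the 12 regions each way with the largest smaller-of-2-pair difference, the 8 genes each way with the most rising or falling regions and none moving the other way, the 5 genes each way with the smallest limma p, up to 4 members per gene list by gene-level p and the loci of the study, Ep300 first. Called or rising and falling regions of the gene lists were described in addition, after their values were seen. In all, 25 gene lists and 10 groups of strings were used. Alternatives were shorter and longer lists, ranking by fold enrichment, summit windows, other filters, other model terms, and leaving out each library. The loci, named regions and genes, gene lists and strings under these settings, and the fit over 16 libraries, were added after seeing the data.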

Additional observations from a re-analysis of the deposited data

Results flagged for a closer look

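In groups of 4 libraries a value was set apart when its gap to the nearest library was large against the range of the group, which chance does in about 1 in 20 groups. This was so in 18 of 88 groups. The strongest 50000 intervals held 995 X-chromosomal intervals in P300KO_TET2KO replicate 2 and 888 in TET2KO replicate 2, and both counts stood apart from the other 3 libraries of their genotype.

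Most of the others were regions where 1 library scored above 0 and the rest of its group at or near it. Among rising regions these were TET2KO libraries at Cdrt4 (4.40), Mep1a (25.3), Skap2 (21.3), Rnf130 (3.91) and Arpc1a (17.0). Among falling regions they were P300KO_TET2KO libraries at Btbd35f28 (20.8, as a region and as the only region of the gene), Scarb1 (1.94), Tff2 (7.15), Gm42791 (10.3) and Gm5148 (11.1). Single libraries also stood apart in groups that scored above 0 throughout. These were in P300KO_TET2KO at Arpc1a (49.1, the lowest), Tspan33 (54.9) and Med13l (25.3), and for the gene mean of Tff2 (33.5). In TET2KO they were at Arpc1a (17.0, the highest) and Scarb1 (57.2).

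The 2 p300 comparisons, with and without Tet2, differed past the threshold at 1 region, where scores with Tet2 intact lay near the upper limit of 100. The region near Alkbh8 scored 93.2, 92.2, 84.2 and 87.9 in P300KO_TET2KO and 99.8, 99.9, 95.5 and 97.2 in TET2KO, whereas P300KO libraries lay between 98.8 and 99.6 and WT libraries between 98.7 and 99.96. The difference without Tet2 minus that with Tet2 was -8.42 (SE 1.18, limma adjusted p = 0.0309 over 49846 regions).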

How the results depend on the processing

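The number of regions called higher by limma and of genes called higher by limma moved with the settings. Lists of 30000 gave 2114 rising and 1669 falling regions and 96 regions called higher by limma, with 23 genes higher. Lists of 80000 gave 5688 rising regions, with 18 genes called higher and 7 lower. Ranking by fold enrichment gave 6733 falling regions, 438 regions called higher and 165 lower, and 401 genes higher and 738 lower. Of the regions called higher and lower in the main ranking, 104 and 48 were also called then. Summit windows gave 6 and 17 calls, regions with scores in all 8 libraries 101 higher, and no minimum of libraries 0 and 0 by limma (7886 unadjusted). Without the term for the replicate set 2 and 2 regions and 1 and 1 genes were called, and with normal scores 23 genes higher. Replicates 1-2 alone gave 0 and 0 regions (4090 unadjusted) and 0 and 0 genes (1311), and replicates 3-4 alone 0 and 0 regions (6920) and 0 and 0 genes (2094).

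With a replicate block 108 regions were called higher and 147 lower, with 142 of the latter also called without it, and 9 genes higher and 2 lower. Of the 58 called regions followed 19 lost the call with the block, and the block changed no call of the others.

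Leaving out 1 library gave 4876 to 5759 rising and 3651 to 4698 falling regions. limma then called 14 (without P300KO_TET2KO replicate 4) to 322 regions higher (without TET2KO replicate 1), 42 (without TET2KO replicate 4) to 310 lower (without TET2KO replicate 1), 3 to 31 genes higher and 2 to 13 lower. The share of regions near a start site was 32.5% to 35.6% of rising and 30.2% to 33.2% of falling regions, and for rising and falling regions 26.2% and 23.1% within 1 kb, 43.5% and 37.7% with 30000, 26.7% and 25.5% with 80000, and 13.9% and 68.1% by fold enrichment. Nfkbia turned to 10.6 with summit windows and Cebpe to -3.20 by fold enrichment. Of all named region and gene values under alternatives, 644 kept direction and side of the threshold, 685 kept direction but lost the call and 5 gained one.

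Locus differences without 1 library were 3.13 to 10.7 for Ep300, -1.02 to 5.12 for Tet2, 3.995 to 8.999 for Myb, -1.82 to -0.508 for Notch1, -4.04 to 1.88 for Dntt and -0.958 to 2.44 for Hoxb. Other settings turned the direction at 2 of the loci named in the study: Hoxb went to -0.834 by fold enrichment, and Notch1 to 1.93 with 30000 and 5.17 by fold enrichment. The cause of these changes was not tested. The peak lists carry no depth, so a region outside the strongest 50000 cannot be ranked further.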

Other observations

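A group of narrow regions at the top of the lists was noticed after the values were seen. Of the 211 regions called lower, 11 had a mean TET2KO score above 90 and a width below 650 bp (276 to 606 bp), whereas the 4891 tested regions with such a score had a median width of 1151 bp and only 61 of them (1.25%) were below 650 bp. They were nearest to Rtl10, Alkbh8, Jarid2, 9530002B09Rik, Igf2bp3, Kpna1, Cd209a, Cdh20, Gm12887, Peak1 and Gphn, and included 6 of the 10 lower calls with the smallest p. Their mean scores were 94.3 to 99.96 in WT, 90.3 to 99.3 in TET2KO and 73.3 to 93.5 in P300KO_TET2KO. Without them 200 regions were called lower.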
